A study of Mus musculus with 2 samples.

Results

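The Hox genes were examined in a map of DNA methylation of mouse liver. The members were all genes whose symbol is Hox, a cluster letter from a to d, and a number, which gave 39 genes in 4 clusters: 11 in Hoxa on chromosome 6, 10 in Hoxb on chromosome 11, 9 in Hoxc on chromosome 15 and 9 in Hoxd on chromosome 2. The DNA came from the livers of a single Pemt−/− and a single Pemt+/+ mouse, both fed high fat-high sucrose (HFHS) chow. Pemt−/− mice lack the enzyme that makes phosphatidylcholine from phosphatidylethanolamine by methylation, and Pemt+/+ mice carry the intact gene. By the sample records the chow was given from 5 weeks of age and the livers were taken at 25 weeks, while the Methods speak of shorter feeding for this step. The mice of the study were male. Methylated DNA was captured and sequenced, and a region is a place where captured reads, called tags, piled up. The deposited lists pair each region with every RefSeq transcript within 10 kb. Of 97063 regions in Pemt−/− and 131279 in Pemt+/+, 9 and 8 were paired with a Hox gene, and of 13071 and 14145 genes with a region, 12 and 11 were Hox genes. With 1 library per genotype there are no replicates, so no difference between the genotypes was tested, and each interval given covers counting error only. The liver was taken whole, so methylation in a few cells and weaker methylation in many cells cannot be told apart, and its cell types cannot be checked from DNA regions.

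Hox genes encode homeodomain transcription factors that give cells along the head-to-tail axis of the embryo their position. In each cluster the genes lie in the order in which they act, from low numbers at the anterior end to high numbers at the posterior end, and genes with the same number in different clusters are paralogs. In adult tissue most of a Hox cluster is usually held silent by Polycomb proteins, and its many CpG islands are usually kept free of DNA methylation. A capture by a methyl-CpG-binding protein sees only methylated CpG sites that stand close together.

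The bases just before some Hox genes are shown to let the density of CpG sites be seen beside the regions. Capitals mark each CpG. The windows are the 250 bases before the start of the gene in RefSeq, assembly GRCm38.p6, written 5′ to 3′ on the gene's strand. Hoxa5, which acts in lung and axial skeleton, had a region close to its start in both mice, and Hoxb8 had one in Pemt+/+. Hoxa13 and Hoxd13, which pattern digits, and Hoxc4 had none. The windows lie at chr6:52204588-52204837 (minus strand) for Hoxa5, at chr11:96281655-96281904 (plus strand) for Hoxb8, at chr6:52260881-52261130 (minus strand) for Hoxa13, at chr2:74667975-74668224 (plus strand) for Hoxd13, and at chr15:103034145-103034394 (plus strand) for Hoxc4.
Hoxa5: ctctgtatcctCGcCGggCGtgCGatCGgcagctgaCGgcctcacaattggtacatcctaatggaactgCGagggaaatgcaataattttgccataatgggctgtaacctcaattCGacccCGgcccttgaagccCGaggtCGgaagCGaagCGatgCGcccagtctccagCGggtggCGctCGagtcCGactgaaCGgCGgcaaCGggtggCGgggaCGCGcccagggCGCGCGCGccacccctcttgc
Hoxb8: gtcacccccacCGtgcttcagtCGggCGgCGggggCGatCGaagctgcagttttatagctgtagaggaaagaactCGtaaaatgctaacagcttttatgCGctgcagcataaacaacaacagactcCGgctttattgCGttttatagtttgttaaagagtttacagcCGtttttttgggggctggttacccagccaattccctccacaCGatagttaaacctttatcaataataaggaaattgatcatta
Hoxa13: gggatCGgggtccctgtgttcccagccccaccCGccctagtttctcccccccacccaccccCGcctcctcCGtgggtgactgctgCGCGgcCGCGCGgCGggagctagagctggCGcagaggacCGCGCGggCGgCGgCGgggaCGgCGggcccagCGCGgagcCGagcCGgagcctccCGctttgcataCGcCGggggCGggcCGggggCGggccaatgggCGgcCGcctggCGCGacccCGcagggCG
Hoxd13: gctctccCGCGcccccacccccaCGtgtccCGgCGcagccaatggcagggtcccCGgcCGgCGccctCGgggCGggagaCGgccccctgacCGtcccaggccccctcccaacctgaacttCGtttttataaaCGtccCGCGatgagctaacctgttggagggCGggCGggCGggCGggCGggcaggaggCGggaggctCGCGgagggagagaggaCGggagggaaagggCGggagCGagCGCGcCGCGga
Hoxc4: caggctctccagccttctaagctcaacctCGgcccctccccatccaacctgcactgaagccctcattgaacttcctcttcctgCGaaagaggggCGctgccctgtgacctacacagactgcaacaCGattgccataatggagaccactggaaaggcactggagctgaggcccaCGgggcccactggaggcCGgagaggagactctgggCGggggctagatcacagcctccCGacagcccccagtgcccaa

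The Hoxa5 window held 28 CpG and the Hoxb8 window 12. Among the genes without a region, the Hoxa13 window held 35 CpG, the Hoxd13 window 31 and the Hoxc4 window 8. The motif searched was CG, which reads the same on both strands. RefSeq gave 24 such windows for 22 of the 39 genes, and they held 2 to 35 CpG with a median of 12.5, against a median of 6 over all 32851 windows of the same length. At least 10 CpG were found in 15 of the 24 Hox windows, against 37.8% of all windows. The 7 windows of Hox genes with a region had a median of 14 CpG, and the 17 windows of Hox genes without one had a median of 12. Among the genes with a window, those with and without a region therefore both had windows rich and poor in CpG. The 2 windows with the most CpG belonged to genes without a region. Of Hoxc only Hoxc4 had a window, and a region may lie up to 10 kb from its gene, outside the window.

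Regions were found at the Hoxa and Hoxb clusters, in both mice, and at no gene of Hoxc or Hoxd in either mouse. In Pemt−/−, 6 of the 11 Hoxa genes and 6 of the 10 Hoxb genes had a region, and in Pemt+/+ 5 and 6 had one. The 18 genes without one in these clusters were Hoxc4, Hoxc5, Hoxc6, Hoxc8, Hoxc9, Hoxc10, Hoxc11, Hoxc12 and Hoxc13, and Hoxd1, Hoxd3, Hoxd4, Hoxd8, Hoxd9, Hoxd10, Hoxd11, Hoxd12 and Hoxd13. The genes with a region were those of the middle of the 2 clusters: all 13 Hoxa and Hoxb genes of paralog groups 3 to 9 had a region in at least one mouse, and none of the 8 others did. Among these were Hoxa2, Hoxb1 and Hoxb2, which act in the hindbrain, and the posterior genes Hoxa10, Hoxa11, Hoxa13 and Hoxb13. The boundary at groups 3 and 9 was drawn after the values were seen. Since a region counts for every gene within 10 kb, neighbouring genes share regions and are not separate observations.

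**Figure D1:**
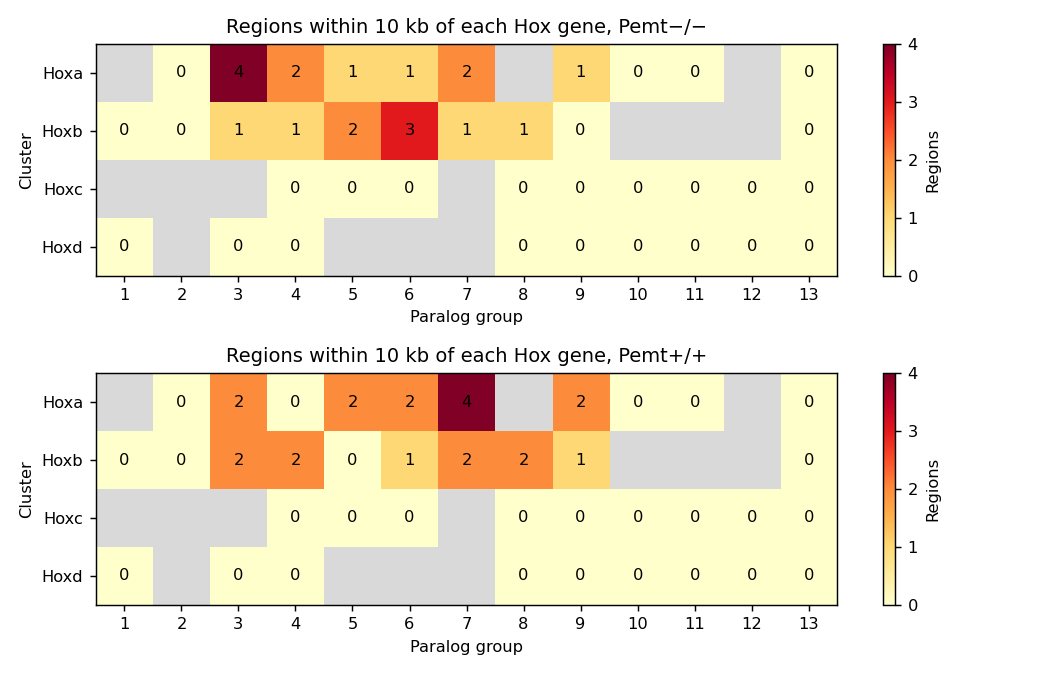
Number of listed regions within 10 kb of each Hox gene, by cluster (rows) and paralog group (columns), in Pemt−/− (upper) and Pemt+/+ (lower). Grey cells are paralog groups that the cluster does not have or that are not shown, and values above 0 stand only in groups 3 to 9 of Hoxa and Hoxb.

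Of the 39 genes, 26 had no region in either mouse, a share of 66.7%, beside 35.4% of the 21900 protein-coding RefSeq genes. In Pemt−/− 30.8% of the Hox genes had a region (95% Wilson interval 18.6 to 46.4%), beside 58.4% of all protein-coding genes. In Pemt+/+ the share was 28.2% (16.5 to 43.8%), beside 63.1%, and in either mouse it was 33.3%, beside 64.6%. A gene without a line may have no region within 10 kb or may be missing from the transcripts the authors used, and the lists do not tell these apart. Neighbouring Hox genes share regions, so these intervals are too narrow. Other developmental and clustered families were chosen for comparison after the values were seen. No region was listed for 19 of 44 Forkhead genes (43.2%), 5 of 13 T-box genes (38.5%) and 9 of 49 keratin genes (18.4%), and these differences were not tested.

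The lists were then read for all regions, paired or not, between the nearest listed neighbour genes of each cluster. For Hoxc, the nearest genes with a region on either side were Calcoco1 and Cbx5 in both mice. Between their regions lay 7 regions in Pemt−/− and 13 in Pemt+/+. None was paired with a transcript, which for other protein-coding genes follows from taking the nearest listed neighbours as bounds. The longest stretch without a region among these was 237.8 kb in Pemt−/−, on chromosome 15 from 102699994 to 102937808, and 201.5 kb in Pemt+/+, from 102705025 to 102906560. For Hoxd, between the regions of Lnp and Hnrnpa3 on chromosome 2, the longest stretch was 278.2 kb in Pemt−/−, from 74349308 to 74627474, and 161.4 kb in Pemt+/+, from 74458830 to 74620202. Around Hoxd 61 regions lay between the neighbours in Pemt−/− and 76 in Pemt+/+, and as given above none was at a Hox gene. Around Hoxa, between Skap2 and Hibadh, the longest stretch was 66.1 kb in Pemt−/− and 67.1 kb in Pemt+/+, and around Hoxb, up to Skap1, it was 98.9 kb and 74.0 kb. The neighbour on the other side of Hoxb was Calcoco2 in Pemt−/− and Ttll6 in Pemt+/+. Each value is the longest of several stretches, whose number differed between clusters (32 and 41 regions lay between the neighbours of Hoxa and 10 and 15 between those of Hoxb), so the lengths are given as a description and were not ranked against single stretches elsewhere. Where in the long stretches the single Hoxc and Hoxd genes lie cannot be read from lists that place only transcripts with a region.

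**Figure D2:**
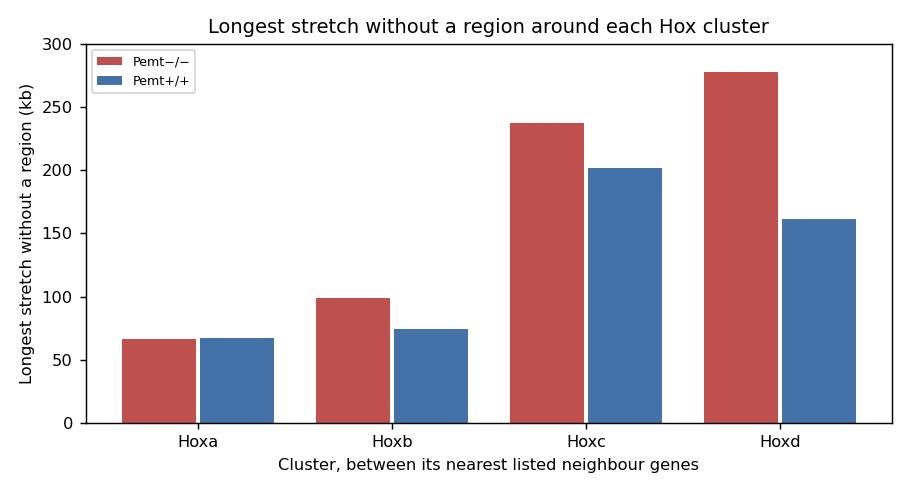
Longest stretch without a listed region (kb) between the nearest neighbour genes with a region on either side of each Hox cluster, in Pemt−/− (red) and Pemt+/+ (blue). The bars of Hoxc and Hoxd stand at 161.4 to 278.2 kb and those of Hoxa and Hoxb at 66.1 to 98.9 kb, each the longest of a different number of stretches.

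The Hoxa regions lay between and inside the genes from Hoxa3 to Hoxa9. Positions are in mm9, the build named in the submitters' processing notes, and transcript ends were worked out from the listed distances, which placed every Hoxa transcript on the minus strand. Hoxa7, a gene of the trunk, had the most tags summed over the 2 mice, 32 tags in 2 regions in Pemt−/− and 69 tags in 4 regions in Pemt+/+. Its transcript NM_010455.2 runs from 52168572 to 52165622, and no region lay inside it. The region from 52170383 to 52170861 in Pemt−/− lay 1811 bp upstream of it, between Hoxa7 and Hoxa9, and held 11 tags. Its counterpart in Pemt+/+ held 14. A further region there, from 52172806 to 52173486, was listed in Pemt+/+ only, held 16 tags and lay 566 bp beyond the 3′ end of Hoxa9, a gene active in blood stem cells.

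Hoxa5 and Hoxa6 shared the strongest Hox region in tags. In Pemt−/− it ran from 52154988 to 52155832 and held 21 tags, and in Pemt+/+ it ran from 52154997 to 52155891 and held 24. The region lay between the genes, 402 bp upstream of the Hoxa5 transcript NM_010453.5 and 531 bp beyond the 3′ end of the Hoxa6 transcript NM_010454.1 in Pemt−/−. In Pemt+/+ the distances were 411 and 472 bp. Its fold enrichment over the caller's background was 7.5 in Pemt−/−, where only 0.989% of the regions of that mouse had a lower one, and 12.7 in Pemt+/+. A second region, from 52156083 to 52156777, overlapped the 3′ end of Hoxa6 in Pemt+/+ only and held 15 tags, and it began 251 bp from the Pemt−/− region of 21 tags. The window printed for Hoxa5 holds the bases before the RefSeq start, which need not be the start of the listed transcript, so the region was not placed on it.

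Hoxa3, which patterns the throat glands, was the Hoxa gene with most regions in Pemt−/−. There it had 4 regions with 52 tags, and in Pemt+/+ 2 regions with 39 tags. Inside its transcript NM_010452.2 were 3 Pemt−/− regions, from 52127557 to 52127997 with 10 tags, from 52129863 to 52130492 with 12 tags and from 52135187 to 52135529 with 9 tags. None of them was listed in Pemt+/+, where the nearest region lay 19468 to 27000 bp away. The latter pair also lay within 10 kb of Hoxa4, beyond its 3′ end, so Hoxa4 had 21 tags in Pemt−/− and no region in Pemt+/+. The remaining Hoxa3 regions in both mice were those upstream of the gene that Hoxa5 and Hoxa6 share.

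The Hoxb regions lay between Hoxb9 and Hoxb3, whose transcripts are on the plus strand. Hoxb6 had the most tags, 34 in 3 regions in Pemt−/− and 11 in 1 region in Pemt+/+. The region listed in both mice, from 96152316 to 96152827 in Pemt−/−, lay between Hoxb7 and Hoxb6, 839 bp beyond the 3′ end of Hoxb7, and held 12 tags in Pemt−/− and 11 in Pemt+/+. In Pemt−/− only, 11 tags lay in a region from 96163374 to 96164083, between Hoxb6 and Hoxb5 and 742 bp upstream of the Hoxb5 transcript NM_008268.2. Another 11 tags lay from 96168125 to 96168402, 690 bp beyond the 3′ end of Hoxb5. Hoxb5 therefore had 22 tags in Pemt−/− and no region in Pemt+/+, where the nearest region was 10557 bp from the first and 15308 bp from the second.

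Hoxb3 and Hoxb4, the latter known for its part in blood stem cells, shared a region in both mice, inside the Hoxb3 transcript NM_001079869.1 and 4155 bp beyond the 3′ end of Hoxb4. It ran from 96187099 to 96187744 with 18 tags in Pemt−/− and from 96187280 to 96187693 with 15 tags in Pemt+/+. It had the highest fold enrichment of the Hox regions in each mouse, 22.2 in Pemt−/− and 16.5 in Pemt+/+. In Pemt+/+ only, a region from 96184424 to 96184788 with 10 tags overlapped the 5′ end of the same Hoxb3 transcript.

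Hoxb8 had the region closest upstream of a Hox transcript. It was listed in Pemt+/+ only, from 96142793 to 96143149, held 9 tags and ended 69 bp before the start of NM_010461.2. It was also the only region of Hoxb9, 4886 bp beyond its 3′ end, so Hoxb9 had a region in Pemt+/+ and none in Pemt−/−. In tags it stood at the floor of the Pemt+/+ list, whose smallest region held 9 tags.

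**Figure D3:**
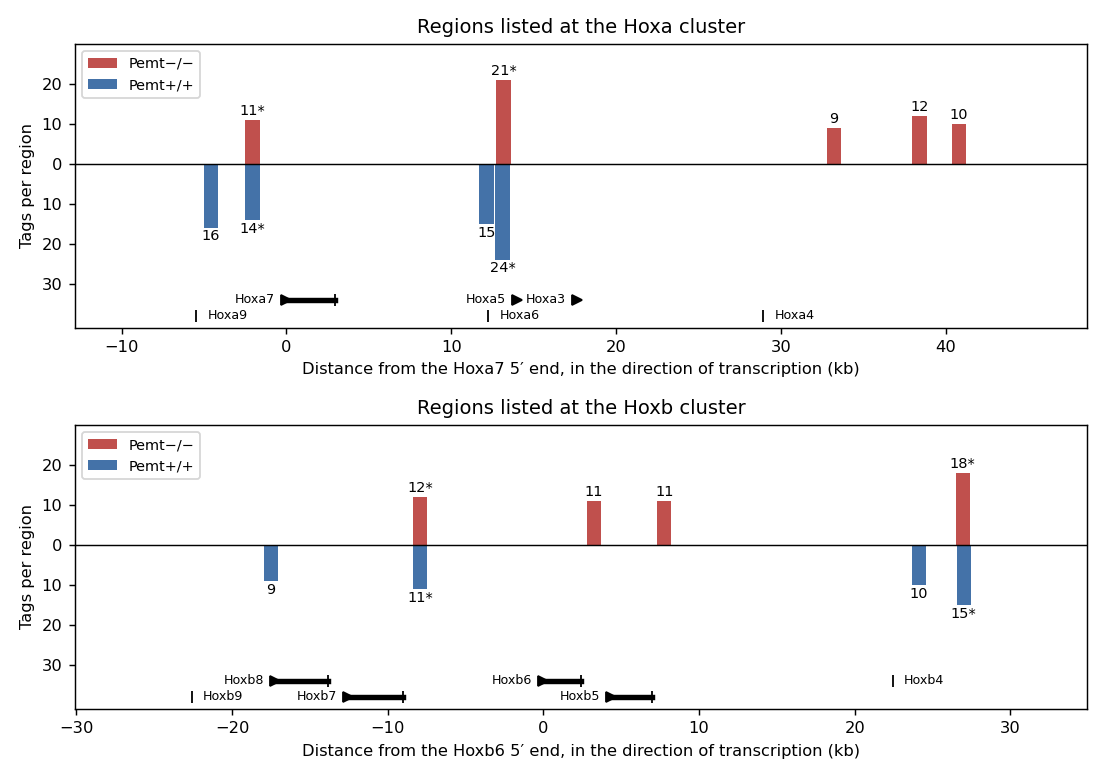
Tags of each listed region (bars, upwards for Pemt−/− and downwards for Pemt+/+) by distance in kb from the Hoxa7 start (upper panel) and the Hoxb6 start (lower panel), with an asterisk on regions found in both mice. Bars stand at region centres and are drawn wider than the regions, and below them arrows mark transcript starts, ticks transcript ends and thick lines transcripts with both ends known. The regions listed in both mice held 11 to 24 tags.

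With regard to the transcripts, 4 of 9 Hox regions in Pemt−/− and 3 of 8 in Pemt+/+ were inside or overlapped a Hox transcript, which is 44.4% and 37.5%, beside 81.8% and 81.5% of all regions that were paired with a transcript, as every Hox region is. Those inside were all in Hoxa3 or Hoxb3. Within 1000 bp upstream of a Hox transcript or across its start were 2 Pemt−/− regions, at Hoxa5 and Hoxb5, and 3 Pemt+/+ regions, at Hoxa5, Hoxb3 and Hoxb8. This was 22.2% (Wilson interval 6.32 to 54.7%) and 37.5% (13.7 to 69.4%), beside 1.53% and 1.52% of all regions paired with a transcript, and the limit of 1000 bp was set after the values were seen. Hox genes stand close together: 8 of the 9 Pemt−/− regions and all 8 Pemt+/+ regions were paired with 2 or more genes, beside 11.3% and 11.7% of the regions with a transcript. The part of this close spacing in the share of regions near a start was not tested.

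The Hox regions were weak beside others. They held 9 to 21 tags with a median of 11 in Pemt−/− and 9 to 24 tags with a median of 14.5 in Pemt+/+, and the medians of all regions were 13 and 17. The median fold enrichment was 14.4 in Pemt−/− and 11.5 in Pemt+/+, beside 16.9 and 16.5. The score, 10 times the −log10 p-value of the caller, had a median of 69.97 in Pemt−/− and 66.4 in Pemt+/+, beside 90.0 and 104.3. The lowest Hox scores were 51.8, at the Hoxb6 and Hoxb5 region of Pemt−/−, and 53.6, at the Hoxa6 region of Pemt+/+, close to the lowest scores in the lists, 50.01 and 50. No Pemt+/+ Hox region reached the median score of its list, and 2 Pemt−/− regions did, the one shared by Hoxb3 and Hoxb4 and the one beyond Hoxb5. In length the Hox regions were not short, with medians of 512 and 494.5 bp beside 421 and 423 bp.

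**Figure D4:**
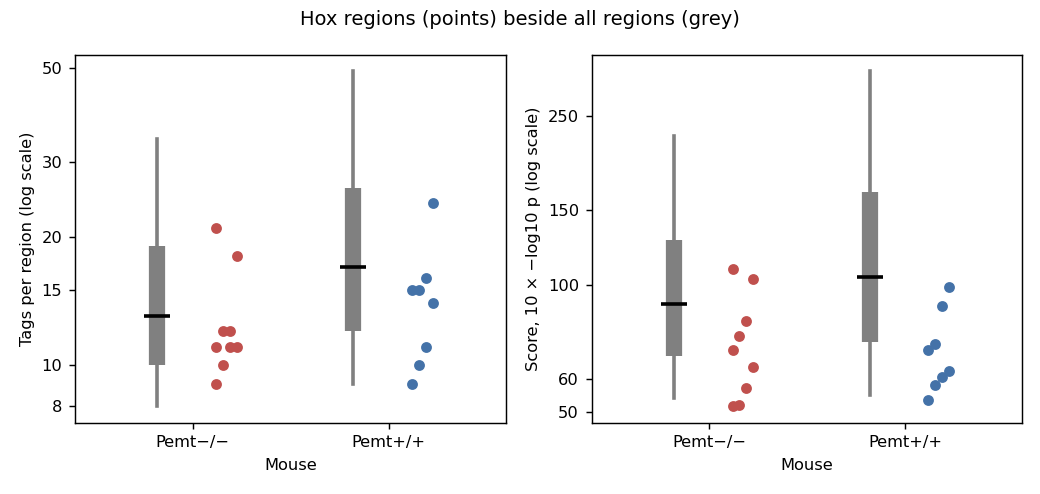
Tags (left) and score (right), both on log axes, of the Hox regions (points) beside all regions of the same mouse (grey: thick bar from the 25th to the 75th percentile, thin line from the 5th to the 95th, black mark at the median). The Pemt+/+ points all lie below the median score of 104.3, and 2 of the 9 Pemt−/− points lie above theirs of 90.0.

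Fewer of the Hox regions of Pemt−/− were found in the other mouse than of its regions at large. Of the 9 Pemt−/− regions 5 overlapped no Pemt+/+ region, beside 16.7% of all Pemt−/− regions, so that 44.4% were shared (Wilson interval 18.9 to 73.3%) beside 83.3%. Of the 8 Pemt+/+ regions 4 overlapped no Pemt−/− region, beside 38.4% of all Pemt+/+ regions, so that 50% were shared (21.5 to 78.5%) beside 61.6%. Among all regions with the tag number of each Hox region in turn, the mean share found in the other mouse was 80.7% in Pemt−/− and 47.2% in Pemt+/+. The Pemt−/− value of the Hox regions lay below its comparison and the Pemt+/+ value lay beside it. This comparison took account of the tag number only and not of the score. The unshared Pemt−/− regions are the 3 inside Hoxa3 and the 2 around Hoxb5, and they held 53 tags in all. Neighbours among them are not separate observations, so the Pemt−/− interval is too narrow. Their scores were 52.0, 57.0 and 70.0 inside Hoxa3 and 51.8 and 109.0 around Hoxb5, in a list that starts at 50.01. The unshared Pemt+/+ regions, at Hoxa6, Hoxa9, Hoxb3 and Hoxb8, held 50 tags. A region missing from a list need not be without tags there, since only regions past the caller's limit are listed.

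For the regions around the clusters, the intervals of the shares included those of all regions. Between the neighbour genes named for the stretches and outside the Hox regions there were 101 regions in Pemt−/−, of which 79.2% were found in Pemt+/+ (Wilson interval 70.3 to 86.0%), and 137 in Pemt+/+, of which 58.4% were found in Pemt−/− (50.02 to 66.3%). Around Hoxa alone the shares were 77.8% of 27 regions and 56.8% of 37. The counts of Hox regions, 9 in Pemt−/− and 8 in Pemt+/+, have exact Poisson intervals of 4.12 to 17.1 and 3.45 to 15.8. These intervals treat each region as a separate event and do not measure the spread between mice. They therefore cannot compare the genotypes, and a difference in counts was not tested. The counts also depend on the length of the lists, 97063 regions in Pemt−/− and 131279 in Pemt+/+. The Pemt+/+ list was cut by score to the size of the Pemt−/− list. Then 9 Hox regions stood in Pemt−/− and 2 in Pemt+/+, and 22.2% of the Pemt−/− ones were found in Pemt+/+. The share over all regions at that size was not worked out.

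In the 4 Hox regions listed in both mice, the raw tags were nearly equal in sum. Relative to the median ratio of all pairs, each of the 4 held more Pemt−/− tags. Summed over the 4, 62 tags were from Pemt−/− and 64 from Pemt+/+, so 49.2% came from Pemt−/− (Wilson interval 40.6 to 57.8%). Over all 79393 pairs that overlapped one to one the share was 39.9%, which lies just under that interval, and over pairs with 23 to 45 tags in total, like those of Hox, it was 40.8%, which lies just inside it. The 80 pairs around the clusters had 39.5% (37.9 to 41.1%). The ratio of Pemt−/− to Pemt+/+ tags was 1.20 at Hoxb3 and Hoxb4, 1.09 between Hoxb7 and Hoxb6, 0.875 at Hoxa5 and Hoxa6 and 0.786 between Hoxa7 and Hoxa9, and the median ratio of all pairs was 0.682. The ratio of all 4 was above that median. At least 1.5 times the median ratio was reached by 2 of the 4, both in Hoxb, beside 10.4% of all pairs. At most 1/1.5 of it was reached by 0, beside 10.9%. Of the 44468 pairs with 23 to 45 tags in total, 5675 reached the upper limit and 4962 the lower. The pair between Hoxb7 and Hoxb6 reached the upper limit with 12 against 11 tags. Each pair rests on few tags, and the interval of the share of each includes 39.9%: for the pair at Hoxb3 and Hoxb4, the one with the highest ratio, the share was 54.5% (37.99 to 70.2%). How many reads each library held is not given in the lists, and the median ratio was used in place of a depth correction.

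**Figure D5:**
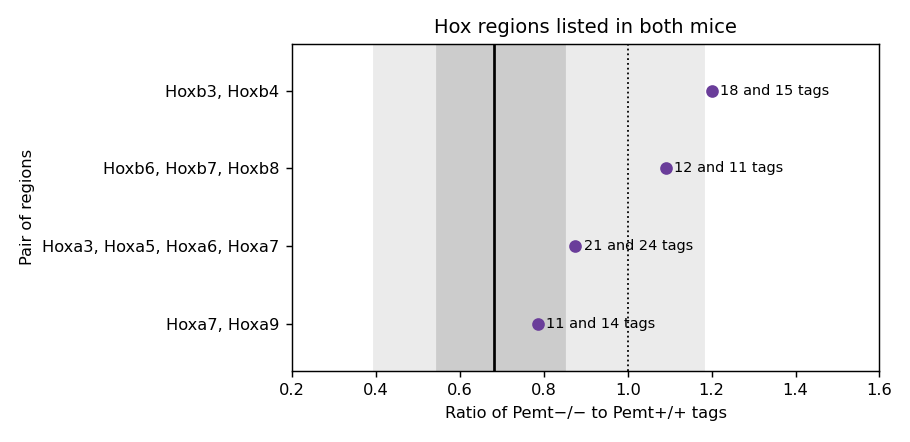
Ratio of Pemt−/− to Pemt+/+ tags in the 4 Hox regions listed in both mice (points, with tags in Pemt−/− and Pemt+/+), beside all 79393 pairs (black line at the median of 0.682, dark band from the 25th to the 75th percentile, light band from the 5th to the 95th). All points lie right of the median, the Hoxb points right of the dotted line of equal tags.

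The authors also deposited a shorter list for each mouse, whose regions were taken to be those higher in that mouse than in its counterpart, although the records do not say so. It held 1 of the 9 Pemt−/− Hox regions, beside 2.13% of all Pemt−/− regions, and 0 of the 8 Pemt+/+ Hox regions, beside 4.59%. The region was the one of 9 tags inside Hoxa3, from 52135187 to 52135529, also 4156 bp beyond the 3′ end of Hoxa4. Its false discovery rate was 100%, as for 2159 of the 2160 regions of that list, and its fold enrichment there was 16.4, the same as in the longer list.

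Genes that work with or beside Hox genes were counted from lists of known members. The cofactors that bind DNA together with Hox proteins, of the Pbx, Meis and Pknox families, had a region at 6 of 9 genes in Pemt−/− and at 7 of 9 in Pemt+/+, beside 58.4% and 63.1% of all protein-coding genes, so these counts were near the share of genes at large. Meis1 had 9 regions with 141 tags in Pemt−/− and 12 regions with 304 tags in Pemt+/+, while Meis2 and Pknox1 were in neither list. The ParaHox genes, a sister group of the Hox genes, had a region at 1 of 6 genes in Pemt−/−, which was Gsx1 with 10 tags, and at 3 of 6 in Pemt+/+, which were Gsx1 with 12, Pdx1 with 10 and Cdx2 with 45 tags, again beside 58.4% and 63.1% of all protein-coding genes. Pdx1 acts in pancreas and Cdx2 in gut. Of 10 genes that flank the clusters 5 had a region in Pemt−/− and 6 in Pemt+/+, beside the same shares, with most regions at Skap1, with 24 and 41 regions. The homeobox genes Evx1 and Evx2, which adjoin Hoxa13 and Hoxd13, had none. The 13 noncoding and microRNA genes of the clusters were in neither list. The lists hold no microRNA lines at all, so nothing can be read from that for the microRNAs. The other noncoding genes may likewise be missing from the transcripts the authors used, so their absence does not show that they lack a region.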

How the data were processed

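Liver DNA was enriched for methylated fragments with a kit, and 1 library per genotype was sequenced. The submitters' processing notes name CASAVA 1.8.2, Bowtie and mm9. The region names are those of the peak caller MACS. Its version, settings and control, and the handling of duplicate reads, are not given in the sources used here. Tags deposited by the authors are raw read counts per region. The deposited fold enrichment is a ratio over the background, the deposited score is 10 times the −log10 p-value, and the deposited FDR is in percent. Summed over listed regions, tags came to 1582080 for Pemt−/− and 2847831 for Pemt+/+, which is not the depth of the libraries. The sample records speak of bisulphite conversion before capture and the Methods do not.

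Each region was used once and paired between mice by an overlap of at least 1 bp. Genes were matched to RefSeq by symbol, for all 39 Hox genes, which also gave the order of genes. Shares have 95% Wilson intervals. The members, lists and comparisons were chosen with earlier results of these data known. Genes given with values were the 3 with the most tags per cluster, those with a region in 1 mouse or in none, the 10 Hox regions with the most tags, and Hox regions of the shorter lists. Values of some single genes are not reported here. No test between genotypes was possible with 1 library each. Python 3.11.15, pandas 2.3.3, numpy 2.4.6, scipy 1.17.1 and matplotlib 3.10.9 were used, and the overlap step was tested on simulated data.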

Additional observations from a re-analysis of the deposited data

How the results depend on the processing

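No paired analysis was possible because only 1 library of each genotype was sequenced. With the upper 50% of the scores in each list, Hox regions numbered 2 in Pemt−/− and 0 in Pemt+/+, so 0% of those of Pemt−/− had a counterpart, and the Pemt+/+ share and the tag share could not be computed. With lists of equal size, in which Pemt+/+ regions had a score of at least 74.71, Pemt−/− had 9 Hox regions and Pemt+/+ had 2, with 22.2% and 100% found in the other list. With only regions inside or overlapping a Hox transcript, Pemt−/− had 4 and Pemt+/+ had 3. The Hox genes with no region then numbered 35, 27 and 36. Shares over all regions and all genes were not worked out for these settings, so these values stand without a background. The 0% and the 100% each rest on 2 regions. The share of paired tags from Pemt−/− was 49.2% over the 4 pairs of the main setting. With only regions inside or overlapping a Hox transcript it was 54.5%, from 1 pair (Wilson interval 37.99 to 70.2%). With lists of equal size it lay between these values and rested on 2 pairs. A 50% overlap of both regions changed none of the shares and kept the same 4 pairs. These settings reuse few pairs, so they cannot show whether the tag share is stable. The comparisons at equal tag numbers and with pairs of similar total tags, the surrounding regions and the other families were chosen after seeing the data. The small tag numbers limit every statement on a single Hox region.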
